A study of Homo sapiens with 8 samples.

Results

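The genes described here are EGFR, ERBB2 and ERBB3, which are receptors of the epidermal growth factor (EGF) receptor family, 5 genes for ligands of that family (AREG, EREG, TGFA, HBEGF and NRG1), and the receptor tyrosine kinase genes MET and AXL. They were taken by gene symbol from a list that was drawn up with earlier results of these data known, and are 10 of the 60291 genes in the count files. All 10 passed the filter on low counts (10 reads or more in any compared library) and were among the 17811 genes tested. The cells were A549, an established human lung adenocarcinoma line in which KEAP1, the protein that marks NRF2 for degradation, carries a loss-of-function mutation. In the NFE2L2 siRNA group, 3 duplexes against NFE2L2, the gene for the transcription factor NRF2, were transfected once each. In the control siRNA group, 2 non-targeting duplexes were transfected 2 times each, and 1 mock transfection stood beside them. Every transfection used 250000 cells, the siRNA amount is labelled as 5 nmol, and RNA was taken after 48 h, so that all groups share the A549 background and the lipid reagent. The NFE2L2 siRNA libraries differ in duplex and the control libraries of 1 duplex are repeats, so the spread within a group is not the same kind of spread in both groups.

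Receptors of the EGF receptor family are membrane tyrosine kinases that pair up when a ligand binds outside the cell. ERBB2 has no known ligand of its own and acts as a partner, and ERBB3 has little kinase activity and passes its signal through a partner as well. The ligands are made as membrane precursors and released by proteases. The paired receptors recruit adaptors that switch on RAS and the ERK kinases, PI3-kinase and AKT, and STAT3. MET, the receptor of hepatocyte growth factor, and AXL, a receptor of GAS6, feed into the same routes, and in lung adenocarcinoma EGFR, ERBB2 and MET are known drivers.

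Gene counts ranged from 35525141 to 41645410 per library. Levels are given as CPM, the reads of a gene per 1000000 gene counts after scaling by the trimmed mean of M-values (TMM). NFE2L2 itself had 32.9, 52.0 and 29.7 CPM with duplexes 1, 2 and 3, against 107 to 117 CPM in the control libraries and 110 CPM in the mock library (log2 fold change -1.55, edgeR adjusted p = 0.000994). The NRF2 targets NQO1 and GCLM fell as well, with log2 fold changes of -2.19 and -2.52. The epithelial keratins KRT8 and KRT18 were at 2827 CPM or more in every library, whereas EPCAM had 3.55 to 10.9 CPM. The epithelial markers KRT19 (edgeR log2 fold change 0.88, adjusted p = 0.0201) and CDH1 (0.74, 0.0455) did not pass in edgeR and were called higher by DESeq2. CDH1 also differed between the control duplexes (duplex 2 relative to duplex 1, -0.67, edgeR adjusted p = 0.00601), and the part of these markers in the results was not tested. The alveolar type II markers SFTPA1, SFTPB, SFTPC and NKX2-1 were at or near 0, with a summed level of at most 0.164 CPM. Of the 10 matched leukocyte, endothelial and fibroblast markers, 7 were below 1 CPM in every library, and the others were CD14, COL1A1 and ACTA2. COL1A1 (log2 fold change 1.50) and CDH5 (1.99) rose with NFE2L2 siRNA. CDH5 had only 18 to 39 reads in the NFE2L2 siRNA libraries and 4 to 8 in the control libraries. CD14 (0.80, edgeR adjusted p = 0.0287) and ACTA2 (0.67, 0.0106) did not pass in edgeR and were called higher by DESeq2. The part of these markers in the results on the receptors was not tested. The samples are bulk RNA, in which fewer cells of a kind and less RNA per cell cannot be told apart.

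None of the 10 genes passed the threshold of 0.01 on the adjusted p in edgeR's quasi-likelihood test of NFE2L2 siRNA against control siRNA. DESeq2 and limma-voom also called 0 of the 10. Over all genes tested 491 passed, which is 2.76%. At an unadjusted p under 0.05 the count was 3 of 10 (EGFR, ERBB2 and MET), against 25.0% of all genes tested. The same 3 genes were higher in every NFE2L2 siRNA library than in every control library, a separation in that direction that 11.9% of all genes tested had. The first share was close to its background, and the second rests on 3 genes. The median log2 fold change was 0.03 over the 10 genes and 0.01 over all genes tested. A missed threshold does not show that the levels were equal, and the 95% intervals of the fold changes are given with each receptor and ligand below.

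**Figure D1:**
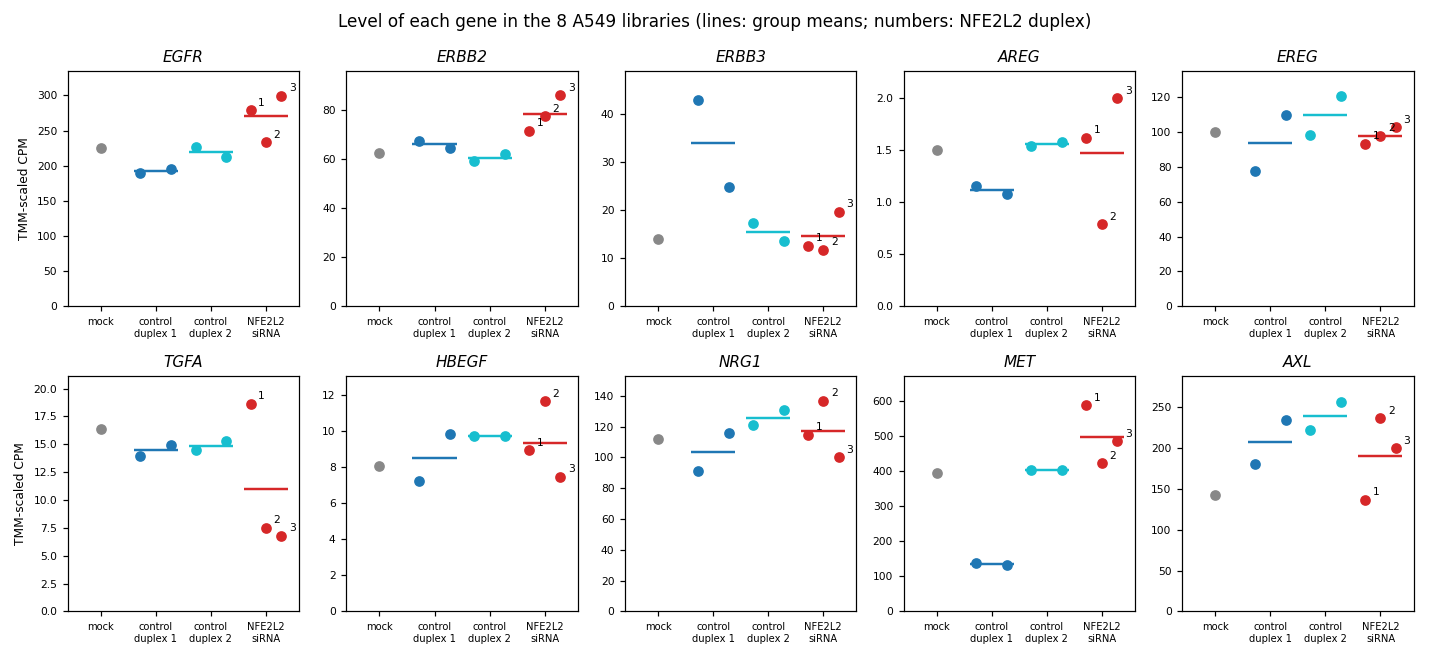
TMM-scaled CPM (linear axis from 0) of the 10 genes in each of the 8 libraries, with mock in grey, control duplex 1 in dark blue, control duplex 2 in light blue and NFE2L2 siRNA in red; each point is 1 library, lines are group means and numbers name the NFE2L2 duplex. The red points of EGFR, ERBB2 and MET sit above all blue points, and for MET the control duplexes lie far apart (132 to 139 against 402 to 404 CPM).

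EGFR (ENSG00000146648.11), the receptor of EGF, TGF-alpha and amphiregulin, lies on chromosome 7 from 55086710 to 55279321 in GRCh37, plus strand. It had 279, 233 and 299 CPM with NFE2L2 duplexes 1, 2 and 3, 190 and 195 CPM with control duplex 1, 226 and 212 CPM with control duplex 2, and 225 CPM in the mock library. Every NFE2L2 siRNA library was above every control library, but duplex 2 exceeded the highest control by little. The means were 270 ± 33.8 CPM (SD, n = 3) and 206 ± 16.5 CPM (SD, n = 4), a ratio of 1.31. The log2 fold change was 0.39 (SE 0.109, 95% interval 0.15 to 0.64) and missed the threshold (edgeR adjusted p = 0.0565, against 0.025 with DESeq2). The two-sided exact permutation test gave p = 0.0571, the smallest p that 35 divisions of 3 and 4 libraries allow. With other controls, scalings and filters, and with each library left out, the log2 fold change stayed between 0.28 and 0.48.

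ERBB2 (ENSG00000141736.9; chromosome 17 from 37844167 to 37886679, plus strand), the shared partner of the family, had 71.4, 77.4 and 85.8 CPM with NFE2L2 duplexes 1, 2 and 3. The control libraries had 67.3 and 64.5 CPM with duplex 1 and 59.1 and 61.8 CPM with duplex 2, and the mock library had 62.4 CPM. The groups did not overlap, and the mock library lay inside the control range. The ratio of the means, 78.2 ± 7.20 (SD, n = 3) to 63.2 ± 3.54 CPM (SD, n = 4), was 1.24. The log2 fold change was 0.31 (SE 0.0949, 95% interval 0.10 to 0.52; edgeR adjusted p = 0.0774, DESeq2 adjusted p = 0.0517).

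ERBB3 (ENSG00000065361.10; chromosome 12 from 56470583 to 56497289, plus strand), the receptor of neuregulins, had 12.5, 11.8 and 19.7 CPM with NFE2L2 duplexes 1, 2 and 3 and 14.0 CPM in the mock library. With control duplex 1 it had 43.0 and 24.8 CPM, and with control duplex 2 it had 17.3 and 13.5 CPM. Both control duplex 1 libraries were above every other library, while control duplex 2 and mock lay within the range of the NFE2L2 siRNA libraries. The log2 fold change against all 4 controls was -0.75 (SE 0.362, 95% interval -1.56 to 0.06; edgeR adjusted p = 0.233). Against control duplex 1 alone it was -1.22, and against control duplex 2 alone it was -0.07. Between the control duplexes themselves ERBB3 differed by a log2 fold change of -1.13 (duplex 2 relative to duplex 1; SE 0.210, edgeR adjusted p = 0.0095). That call was lost with DESeq2 (adjusted p = 0.0618), and in edgeR with DESeq2 size factors (0.0127) and with a filter of at least 1 read (0.169). With each control library left out, which leaves 1 library of a duplex, the log2 fold change lay between -1.48 and -0.68.

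MET (ENSG00000105976.10; chromosome 7 from 116312250 to 116438431, plus strand) had the widest split among the controls. It had 139 and 132 CPM with control duplex 1 and 402 and 404 CPM with control duplex 2, a ratio of 2.98 between the duplexes. The mock library, with 394 CPM, lay beside control duplex 2. With NFE2L2 duplexes 1, 2 and 3 MET had 587, 422 and 485 CPM, so that every NFE2L2 siRNA library was above every control, duplex 2 by a small margin. Against all 4 controls the log2 fold change was 0.89 (SE 0.389, 95% interval 0.02 to 1.76; edgeR adjusted p = 0.192). Against control duplex 1 alone it was 1.87 (adjusted p = 0.00349), against control duplex 2 alone 0.30 (adjusted p = 0.429), and against control duplex 2 with the mock library 0.31 (adjusted p = 0.198). The choice of control duplex thus moved MET by more than leaving out any 1 library did (0.66 to 1.15). The level of MET with control duplex 1 differed from that with control duplex 2 (log2 fold change 1.58, 95% interval 1.44 to 1.72; edgeR adjusted p = 2.96e-06). The call between the duplexes held with DESeq2 and was lost when control replicate 3 or 4 was left out (adjusted p = 0.349 and 0.303). In those fits the spread came from the libraries of control duplex 1 alone, and the log2 fold change stayed between 1.54 and 1.61 with each control library left out.

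AXL (ENSG00000167601.7; chromosome 19 from 41725128 to 41767671, plus strand) had 136, 236 and 199 CPM with NFE2L2 duplexes 1, 2 and 3. The control libraries had 181 and 234 CPM with duplex 1 and 221 and 256 CPM with duplex 2. The mock library, at 142 CPM, was below every control library and near NFE2L2 duplex 1. The groups overlapped, with a log2 fold change of -0.23 (SE 0.181, 95% interval -0.63 to 0.18; edgeR adjusted p = 0.479). It was -0.034 without NFE2L2 duplex 1 and -0.43 without NFE2L2 duplex 2, and passed in neither case (adjusted p = 0.9 and 0.151).

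**Figure D2:**
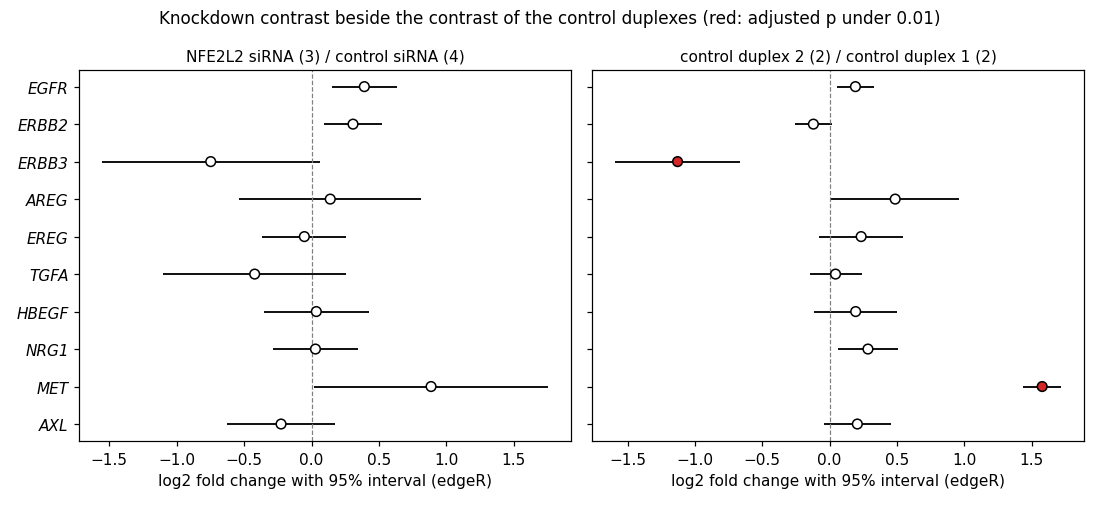
Log2 fold changes from edgeR with 95% intervals for NFE2L2 siRNA against control siRNA (left, 3 and 4 libraries) and for control duplex 2 against control duplex 1 (right, 2 and 2 libraries), in which red points have an adjusted p under 0.01. On the left no gene is red, and on the right ERBB3 (-1.13) and MET (1.58) are.

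Between the control duplexes 2 of the 10 genes passed the threshold, and over all genes tested 546 passed, or 3.07%. That contrast uses neither the NFE2L2 siRNA libraries nor the mock library, and its error comes from 2 libraries on each side. EGFR differed between the control duplexes by a log2 fold change of 0.19 (95% interval 0.05 to 0.33) and ERBB2 by -0.12 (95% interval -0.26 to 0.02), and neither passed. The mock library was outside the range of the control libraries for 2 of the 10 genes, TGFA (above) and AXL (below), against 45.0% of all genes tested. For MET and ERBB3 the mock library was close to control duplex 2, and control duplex 1 stood apart.

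**Figure D3:**
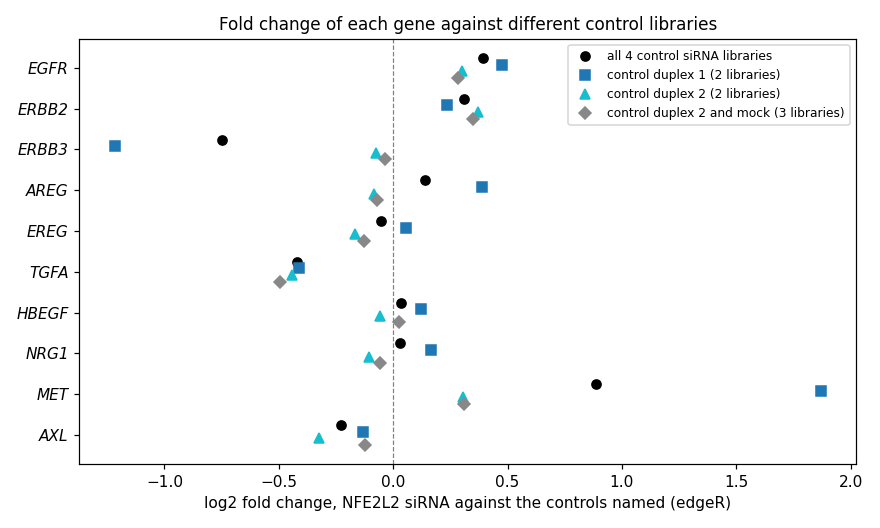
Log2 fold change of NFE2L2 siRNA for each gene when the controls are all 4 libraries (black), control duplex 1 (dark blue), control duplex 2 (light blue) or control duplex 2 with the mock library (grey). The markers of EGFR and of ERBB2 lie close together above 0, and those of TGFA and of AXL below 0. Those of MET spread from 0.30 to 1.87 and those of ERBB3 from -1.22 to -0.04.

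Among the ligands, TGFA (ENSG00000163235.11; chromosome 2 from 70674416 to 70781325, minus strand), the gene for TGF-alpha, separated the NFE2L2 duplexes. It had 18.6 CPM with duplex 1 but 7.50 and 6.81 CPM with duplexes 2 and 3. The control libraries lay between 14.0 and 15.3 CPM, and the mock library had 16.3 CPM. Duplex 1 was thus above every control library and duplexes 2 and 3 below every one, at 1.27, 0.511 and 0.465 times the control mean. Over the 3 duplexes the log2 fold change was -0.42 (SE 0.303, 95% interval -1.10 to 0.26; edgeR adjusted p = 0.425). Without the library of NFE2L2 duplex 1 it was -1.04 with an adjusted p of 0.0013. NFE2L2 was reduced with all 3 duplexes, most with duplexes 1 and 3, whereas TGFA was highest with duplex 1 and lowest with duplex 3. Each duplex has 1 library, and a relation between the levels of TGFA and NFE2L2 was not tested.

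HBEGF (ENSG00000113070.6; chromosome 5 from 139712428 to 139726188, minus strand), the gene for heparin-binding EGF, had 8.92, 11.6 and 7.45 CPM with NFE2L2 duplexes 1, 2 and 3. It had 7.20 and 9.81 CPM with control duplex 1, 9.70 and 9.69 CPM with control duplex 2, and 8.03 CPM in the mock library. The groups overlapped, with a log2 fold change of 0.04 (95% interval -0.36 to 0.43; edgeR adjusted p = 0.926).

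NRG1 (ENSG00000157168.14; chromosome 8 from 31496738 to 32713184, plus strand), the gene for neuregulin 1, a ligand of ERBB3, had 115, 137 and 100 CPM with NFE2L2 duplexes 1, 2 and 3. The control libraries had 91.3 and 116 CPM with duplex 1 and 121 and 131 CPM with duplex 2, and the mock library had 112 CPM. The groups overlapped (log2 fold change 0.03, 95% interval -0.29 to 0.35; edgeR adjusted p = 0.926).

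EREG (ENSG00000124882.3; chromosome 4 from 75230862 to 75254466, plus strand) is the gene for epiregulin. With AREG left out, it was the most abundant of the listed ligand genes per length in the control libraries. It had 93.1, 97.9 and 103 CPM with NFE2L2 duplexes 1, 2 and 3, 77.5 and 110 CPM with control duplex 1, 98.5 and 121 CPM with control duplex 2, and 99.8 CPM in the mock library. The NFE2L2 siRNA libraries lay inside the control range (log2 fold change -0.05, 95% interval -0.36 to 0.26; edgeR adjusted p = 0.851). For HBEGF, EREG and NRG1 the 95% interval lay within 0.43 of no change on the log2 scale in either direction.

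AREG (ENSG00000109321.6; chromosome 4 from 75310853 to 75320722, plus strand), the gene for amphiregulin, had 1.62, 0.788 and 2.00 CPM with NFE2L2 duplexes 1, 2 and 3. It had 1.15 and 1.08 CPM with control duplex 1, 1.54 and 1.58 CPM with control duplex 2, and 1.50 CPM in the mock library. The libraries with the highest and the lowest level were both from the NFE2L2 siRNA group (log2 fold change 0.14, 95% interval -0.54 to 0.81; edgeR adjusted p = 0.819). Only 31 to 85 reads were counted on the gene in a library, and this value is uncertain, because the annotation holds AREGB, a near-identical copy. Of the 756 coding bases of each, 1 differed (99.87% identity), and 1085 of the 1160 windows of 75 bases in the AREG transcript were also found in AREGB. The window was chosen here, since the read length is not given in the sources used. AREGB had 0 or 1 read in every library. HTSeq counts no read that aligns to several places. The stretch of 75 coding bases below, from coding exon 3 in GRCh37, is shown because a read that lies wholly inside it cannot be placed. It reads the same at both places.
AREG, chr4:75314827-75314901, plus strand: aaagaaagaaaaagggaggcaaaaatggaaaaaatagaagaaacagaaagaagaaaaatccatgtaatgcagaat
AREGB, chr4:75484586-75484660, plus strand: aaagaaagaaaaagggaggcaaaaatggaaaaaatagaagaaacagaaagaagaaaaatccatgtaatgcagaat

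Levels of different genes were compared per length, as TPM (reads per exon base of a gene, scaled to a sum of 1000000 in each library). Lengths came from release 44 of the GENCODE annotation, whereas the reads were counted on release 19. A length may thus include exons on which no read was counted. In the control libraries AXL had 131 ± 27.7 (SD, n = 4), MET 115 ± 71.9, EREG 53.7 ± 13.4 and EGFR 38.8 ± 5.60 TPM. ERBB2 with 18.3 ± 1.02 and NRG1 with 16.2 ± 3.53 followed, and HBEGF had 9.16 ± 1.78 and TGFA 8.95 ± 1.01. ERBB3 had 6.12 ± 2.80 TPM. AREG had 2.46 ± 0.649 TPM over its whole length. Reads that also match AREGB are not counted, and 1085 of the 1160 windows of 75 bases were shared. This value is thus taken as too low, by an amount that was not measured, and AREG was given no place in the order. The ranges over the 4 libraries overlapped between neighbours from AXL to EGFR, between ERBB2 and NRG1, and from HBEGF to ERBB3, so that these orders are not beyond the spread. They did not overlap between EGFR and ERBB2 or between NRG1 and HBEGF. With the length of the canonical transcript in place of all exons, ERBB3 moved from place 9 to place 7 and the first 6 places kept their order.

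The other genes of the pathway were taken from a list of 70, of which 67 were tested. ERBB4 (0 to 3 reads) and EPGN (0 to 4 reads) were too low to test, and NRG3 had no read. In NFE2L2 siRNA against control siRNA 5 of the 67 passed, 1 higher and 4 lower, beside the 2.76% of all genes. At an unadjusted p under 0.05 the count was 21 of 67, against 25.0% of all genes. The median log2 fold change of the list was -0.02. The genes that passed were the ligand genes EGF and NRG4, the ERK-responsive genes DUSP5 and ETV4, and STAT3. None of these 5 calls held when either control duplex stood alone as the control (edgeR adjusted p from 0.0167 to 0.103), where 117 and 60 genes passed in all.

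EGF (ENSG00000138798.7; chromosome 4 from 110834039 to 110934922, plus strand), the ligand that gave the family its name, had 18, 19 and 33 reads with NFE2L2 duplexes 1, 2 and 3. It had 90 and 70 reads with control duplex 1, 88 and 95 reads with control duplex 2, and 96 reads in the mock library. All 3 NFE2L2 siRNA libraries were far below all controls, and mock was level with the controls. In CPM the means were 0.587 ± 0.163 (SD, n = 3) and 2.33 ± 0.317 (SD, n = 4), a log2 fold change of -1.97 (SE 0.232, edgeR adjusted p = 0.0011). EGF stayed past the threshold with each library left out in turn (adjusted p from 0.0024 to 0.00563), with DESeq2 and with limma-voom. The log2 fold change was -1.87 against control duplex 1 alone and -2.08 against control duplex 2 alone.

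NRG4 (ENSG00000169752.12; chromosome 15 from 76228310 to 76352136, minus strand), which encodes a ligand of ERBB4, had 2, 12 and 11 reads with NFE2L2 duplexes 1, 2 and 3. It had 49 and 36 reads with control duplex 1, 31 and 35 reads with control duplex 2, and 46 reads in the mock library. These few reads did not overlap between the groups, and the gene fell by 2.26 on the log2 scale (SE 0.398, edgeR adjusted p = 0.00883). The call was lost with limma-voom (adjusted p = 0.0131), without NFE2L2 duplex 3 (0.0307) and against control duplex 2 with mock (0.0249). It was also lost without any 1 of the 4 control libraries (0.0208 to 0.0314). With single libraries left out the log2 fold change stayed between -2.63 and -1.85. The other ligand genes tested were BTC, for betacellulin (log2 fold change 0.20, edgeR adjusted p = 0.633), and NRG2 (-0.07, adjusted p = 0.86). Among the 9 ligand genes tested for the receptor family, EGF and NRG4 were thus the ones that passed the threshold, both lower. Neither was as abundant in reads as EREG or NRG1.

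**Figure D4:**
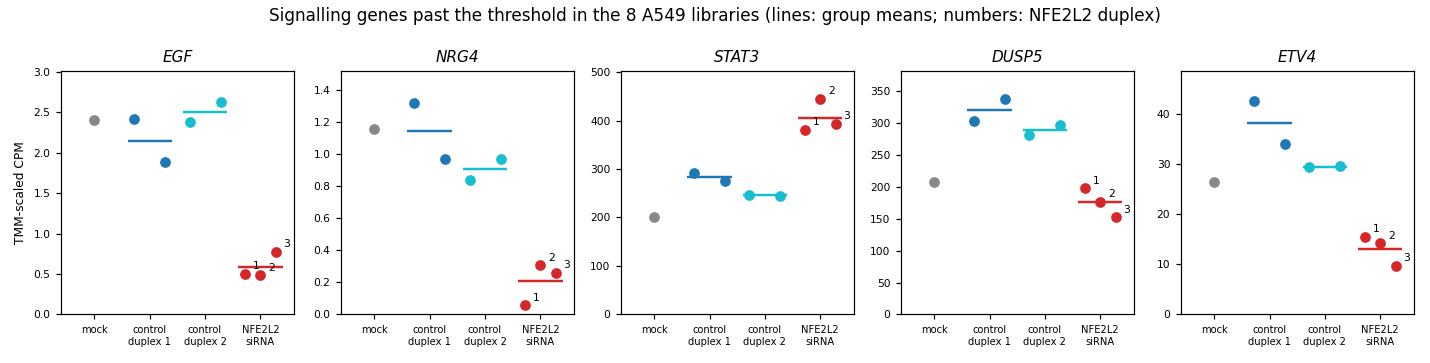
TMM-scaled CPM (linear axis from 0) in each of the 8 libraries for the 5 pathway genes with an adjusted p under 0.01, with colours, mean lines and duplex numbers for mock (grey), control duplex 1 (dark blue), control duplex 2 (light blue) and NFE2L2 siRNA (red). EGF, NRG4, DUSP5 and ETV4 are lower and STAT3 is higher in all 3 NFE2L2 siRNA libraries than in all 4 control libraries, and the mock library lies below the control range for STAT3 (200 CPM), DUSP5 (207 CPM) and ETV4 (26.4 CPM).

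The promoters of EGF and NRG4 are shown because these 2 ligand genes passed the test, and that of GCLM because it is a known target of NRF2. NRF2 binds the antioxidant response element, whose core is TGACNNNGC, searched here on both strands of 300 bases around the start (250 before, 50 after) in RefSeq promoters of GRCh38.p14. This core was present in 13.3% of 35116 promoters. It was found 1 time in each of the promoters of EGF, NRG4 and GCLM and was not found in those of NQO1, another NRF2 target, STAT3, which also passed the test, BTC or NRG2. DUSP5 and ETV4, which passed the test as well, had no entry among these promoters and could not be searched. The 120 bases before the starts of EGF, NRG4 and GCLM are printed along the gene's strand with the core in capitals, reverse complemented for EGF and GCLM. The letters of the core in EGF, TGACTCAGC, overlap the motif TGANTCA of the AP-1 factors.
EGF, chr4:109912763-109912882, plus strand: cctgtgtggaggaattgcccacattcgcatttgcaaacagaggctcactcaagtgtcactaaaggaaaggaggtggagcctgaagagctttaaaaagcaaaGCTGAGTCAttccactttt
NRG4, chr15:76012425-76012544, minus strand: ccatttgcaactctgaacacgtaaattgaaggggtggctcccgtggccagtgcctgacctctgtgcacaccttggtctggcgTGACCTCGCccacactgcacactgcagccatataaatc
GCLM, chr1:93909431-93909550, minus strand: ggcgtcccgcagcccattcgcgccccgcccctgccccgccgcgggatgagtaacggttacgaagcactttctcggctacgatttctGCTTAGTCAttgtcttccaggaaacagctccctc

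The core began 19 bases before the start of EGF, 38 before that of NRG4 and 34 before that of GCLM. Of the 10 receptor and ligand genes, 8 had an entry in the promoter table. The core was in the first entry of none of the 8, and in 1 further entry, the second one of AXL (TGACCCTGC). A match of letters is a description of the sequence and does not show binding.

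STAT3, a transcription factor activated by receptor tyrosine kinases, was the 1 pathway gene that passed the threshold upwards in edgeR. It had 381, 445 and 393 CPM with NFE2L2 duplexes 1, 2 and 3, 291 and 276 CPM with control duplex 1, and 246 and 245 CPM with control duplex 2. Its log2 fold change was 0.62 (SE 0.0994, edgeR adjusted p = 0.00577). The mock library, at 200 CPM, was below all controls. The call was lost without NFE2L2 duplex 3 (adjusted p = 0.0172) and without control replicate 2, 3 or 4 (0.0242 to 0.0264).

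DUSP5, a phosphatase of ERK that is induced by ERK signalling, had 197, 176 and 152 CPM with NFE2L2 duplexes 1, 2 and 3. It had 303 and 338 CPM with control duplex 1, 281 and 297 CPM with control duplex 2, and 207 CPM in the mock library. The mock library was closer to NFE2L2 duplex 1 than to any control. DUSP5 fell by 0.80 on the log2 scale (SE 0.112, edgeR adjusted p = 0.00292), and by 0.58 against control duplex 2 with mock, which did not pass (adjusted p = 0.0741). The call was also lost with mock added to the controls (0.0131), without NFE2L2 duplex 3 (0.0105) and without control replicate 2 (0.0143) or 4 (0.0114).

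ETV4, an ETS transcription factor downstream of ERK, had 15.5, 14.2 and 9.73 CPM with NFE2L2 duplexes 1, 2 and 3. It had 42.5 and 33.9 CPM with control duplex 1, 29.3 and 29.6 CPM with control duplex 2, and 26.4 CPM in the mock library. All NFE2L2 siRNA libraries were below the mock library and the controls. ETV4 fell by 1.37 on the log2 scale (SE 0.190, edgeR adjusted p = 0.00276). The call was lost without control replicate 2 (0.0133) and against control duplex 2 with mock (0.0106).

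In the groups by role, 2 of 14 ERK-responsive genes passed (DUSP5 and ETV4, both lower), and the median log2 fold change of the 14 was -0.22. The other ERK-responsive genes did not pass in edgeR. Among them were FOSL1 (log2 fold change -0.89, edgeR adjusted p = 0.0876), FOS (-0.64, 0.0852), MYC (-0.39, 0.0241) and CCND1 (-0.79, 0.0574). Each of these was lower in every NFE2L2 siRNA library than in every control library. The share of all genes that were lower in this way was not counted. SPRY2 (0.84, 0.012) and PHLDA1 (0.39, 0.046) went the other way. They were higher in every NFE2L2 siRNA library than in every control library, a separation that 11.9% of all genes tested had. DUSP6 (0.10), DUSP4 (-0.18) and EGR1 (-0.17) were nearer to 0. Of 27 adaptors and signal carriers STAT3 was the 1 that passed, and the group's median was -0.05. None of 14 negative regulators, 4 genes for ligand shedding, 3 ligand genes listed with MET and AXL or 3 related receptors passed in edgeR. Their median log2 fold changes were 0.25, 0.27, 0.33 and 0.11 in that order. The 3 ligand genes in that list were HGF, GAS6 and PROS1. With 2.76% of all genes tested passing, a count of 0 in lists this short is not a result about these groups. DESeq2 called 4 further genes, named here after their values were seen. They were RHBDF1, which escorts the shedding protease ADAM17 (edgeR log2 fold change 0.56, adjusted p = 0.0133), SPRY2, an antagonist of receptor tyrosine kinase signalling (0.84, 0.012), MYC (-0.39, 0.0241) and the cyclin CCND1 (-0.79, 0.0574). CCND1 also differed between the control duplexes (duplex 2 relative to duplex 1, -0.56, edgeR adjusted p = 0.000737). It had 453 and 464 CPM with control duplex 1, 303 and 316 CPM with control duplex 2, and 221, 288 and 159 CPM with NFE2L2 duplexes 1, 2 and 3. GAS6, the ligand of AXL, had a log2 fold change of 0.33 (edgeR adjusted p = 0.118). HGF, the ligand of MET, had 6 to 25 reads in a library.

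The 3 genes whose levels were most like those of EGFR over the 8 libraries were NTRK3 (Pearson r = 0.99), ZFP62 (0.98) and MEG3 (0.98), out of 11123 genes with a mean of at least 5 CPM. The measure was the correlation of log2(CPM + 0.5), and the libraries share groups and control duplexes, so it is given as a description.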

How the data were processed

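Strand-specific total RNA libraries (TruSeq, Ribo-Zero Gold) of 8 A549 transfections were grouped by their labels. The authors aligned reads to hg19 with HISAT 0.1.6 and deposited raw counts per GENCODE v19 gene from HTSeq 0.6.0 (reverse strand, intersection-strict). The 5 summary entries of HTSeq were dropped, and 60.3 to 65.6% of all entries fell on genes. Symbols, positions and lengths came from GENCODE v44 on GRCh37 (55538 identifiers matched). The 3 NFE2L2 siRNA and 4 control siRNA libraries were compared with edgeR 4.0.16 in R 4.3.3 (TMM, quasi-likelihood, two-sided, prior count 0.125) with a filter of 10 reads in any of these libraries, Benjamini-Hochberg adjustment over the 17811 genes left, and a threshold of 0.01. The mock library was not tested, as in the study. DESeq2 1.42.0, limma-voom (limma 3.58.1), other scalings, filters and controls, and the omission of each library were alternatives. The members and pathway lists were chosen with earlier results of these data known. All members, the pathway genes past the threshold and those without reads were named, with 3 genes most like EGFR; other pathway genes were named after their values were seen. Protein sequences were not used here. The control duplexes were compared in a fit of the 4 control libraries alone. Replicates of a control duplex are separate transfections, and the p-values measure the spread between these libraries. The main test took the 4 control libraries as independent, although they are 2 duplexes with 2 repeats each. With each control duplex summed, 77 genes passed in place of 491, and 0 pathway genes in place of 5.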

Additional observations from a re-analysis of the deposited data

Results flagged for a closer look

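HBEGF was flagged because 1 of the 4 control siRNA libraries stood apart from the others. Control replicate 1 had 7.20 CPM and the other three had 9.69 to 9.81 CPM, so that its gap to the nearest of them was 0.953 of the group's whole range, above the critical value of Dixon's test for 4 values. The gene was 1 of 18 examined, and chance flags about 1 in 20 groups.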

How the results depend on the processing

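The count of receptor and ligand genes past the threshold in NFE2L2 siRNA against control siRNA stayed at 0 except that it was 1 with control duplex 1 alone (MET), and it was 0 or 1 when single libraries were omitted (TGFA, without NFE2L2 replicate 1). The count of pathway genes was 5, and it was 9 with DESeq2, 8 with a filter of at least 1 read, 0 with control duplex 1 alone, control duplex 2 alone or each duplex summed, 2 with control duplex 2 and the mock library (chosen after seeing the data), 10 at a threshold of 0.05, and 1 to 6 when single libraries were omitted. Over all genes 491 passed, with 1319 by DESeq2, 1019 with at least 1 read, 117 and 60 with control duplex 1 or 2 alone, 77 with each duplex summed, 771 with mock added to the controls, 250 with control duplex 2 and mock, 1456 at 0.05, and 163 (without control replicate 2) to 917 (without NFE2L2 replicate 2) when single libraries were omitted. Between the control duplexes the count of 2 became 1 with DESeq2, with its size factors and with at least 1 read, and went from 0 (without control replicate 3 or 4) to 5 (without control replicate 2).

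Small fold changes changed sign. With control duplex 2 alone the log2 fold change was -0.0854 for AREG, -0.0571 for HBEGF and -0.106 for NRG1, with control duplex 2 and mock -0.073 for AREG and -0.0566 for NRG1, and with control duplex 1 alone 0.0553 for EREG. With libraries left out it ranged from -0.16 to 0.43 for AREG, -0.163 to 0.0403 for EREG, -0.17 to 0.18 for HBEGF and -0.11 to 0.13 for NRG1. The cause of these changes was not tested. EGFR, ERBB2, ERBB3, TGFA, MET and AXL kept their direction in every alternative run. No paired analysis was possible because a number stands for a duplex in the NFE2L2 siRNA libraries and for a repeat in the control libraries. With 31 to 85 reads, AREG had the widest counting error of the 10 genes.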
